A study of Homo sapiens with 4 samples.

Results

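The genes described here are 10 genes of the ATF4-CHOP branch of the integrated stress response: ATF4, ATF5, DDIT3, PPP1R15A, TRIB3, DDIT4, SESN2, CHAC1, VLDLR and ASNS. They were chosen by name, with earlier results of these data known, as were the gene lists below. Counts set beside shares of all genes are therefore description and no test. Their Ensembl identifiers were looked up in a table of 17656 genes. The table held 9 of the 10, and ASNS was not analysed here. Of those 9, 8 passed the filter on low values (at least 1 TPM in 2 or more libraries) and were tested, and CHAC1 did not pass it. TPM is a gene's share of the RNA in a library after correction for transcript length.

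The RNA came from U937, a human monocytic leukemia cell line, and the study asked how loss of the zinc finger factor ZNF217 alters transcription in acute myeloid leukemia. The 2 libraries labelled sh-ZNF217 are described by their labels as knockdown cells, and the 2 NC libraries as cells without treatment. The study's text also speaks of lentiviral Cas9 knockout lines with a non-targeting control for this comparison, so which agent each library received is not certain. No label says whether replicate libraries were grown as separate cultures, so every p-value measures only the spread between these libraries, which may be technical.

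In the integrated stress response, kinases that sense amino acid lack, endoplasmic reticulum stress, heme lack or viral RNA phosphorylate the translation factor eIF2. General translation then falls while the ATF4 mRNA, which carries short upstream reading frames, is translated better. ATF4 protein turns on genes of amino acid supply together with DDIT3, which encodes the death-linked factor CHOP, and the response is ended by PPP1R15A (GADD34), which directs a phosphatase to eIF2. ATF4 mRNA level and ATF4 protein are therefore separate quantities, and RNA-seq reads the mRNA.

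DDIT3, DDIT4 and PPP1R15A rose in libraries labelled sh-ZNF217, by 2.88-fold, 2.56-fold and 1.74-fold in mean TPM, while ATF4 mRNA was at a lower level than in NC. SESN2 and ATF5 were higher in both libraries labelled sh-ZNF217 but stayed short of the fold minimum, and TRIB3 and VLDLR had overlapping groups. A gene was called changed in limma at a Benjamini-Hochberg adjusted p below 0.05 over the 14582 genes tested and an absolute log2 fold change above 0.5. By this rule 3 of the 8 tested genes were higher and 0 were lower, against 6.26% of all genes tested that were higher and 2.46% that were lower, 8.72% in either direction. At an unadjusted limma p below 0.05, 5 genes were higher and 1, ATF4, was lower. Shares of all genes tested at that unadjusted threshold were not counted, here or for the lists below. Many genes passed it, since CEBPA, with a limma p of 0.04996, had an adjusted p of 0.145. Counts at that threshold therefore stand without a background and are no result about the genes. The groups did not overlap for 5 genes on the higher side and 1 on the lower side, and over all genes tested 33.5% were separated upward and 28.6% downward. The median log2 fold change was 0.42 over the 8 genes and 0.02 over all genes tested.

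**Figure D1:**
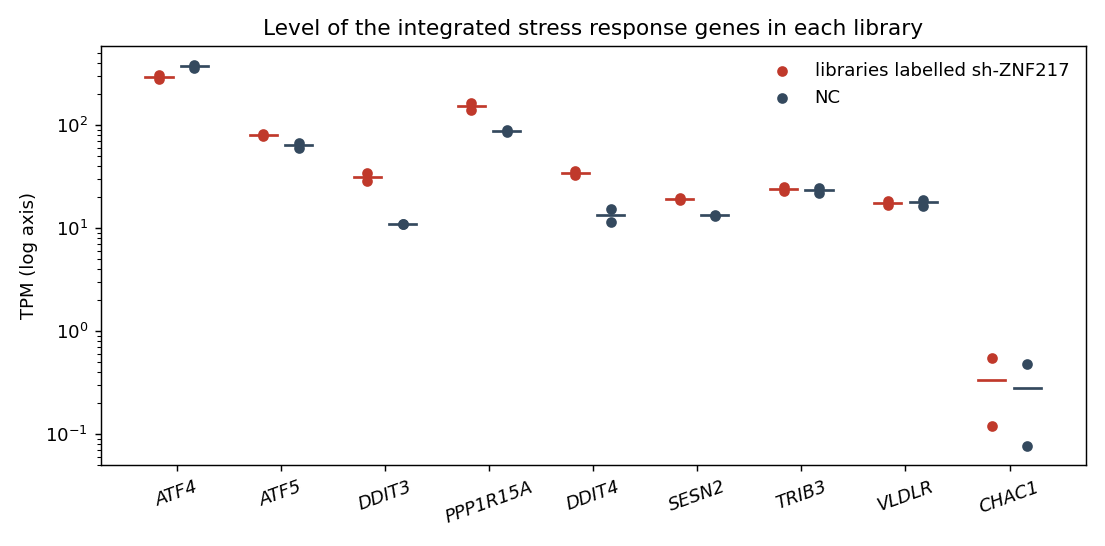
Level of each of the 9 measured genes in TPM on a log axis, where points are libraries and lines are group means, with libraries labelled sh-ZNF217 on the left of each pair and NC on the right. DDIT3 sits at 28.8 and 34.4 TPM in libraries labelled sh-ZNF217 and at 10.9 and 11.0 TPM in NC, while CHAC1 stays below 1 TPM in all 4 libraries.

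ATF4, the basic leucine zipper factor that heads the branch (ENSG00000128272, hg38 chr22:39519695-39522683, plus strand), had 277 and 306 TPM in libraries labelled sh-ZNF217, against 360.1 and 383 TPM in NC. Both libraries labelled sh-ZNF217 lay below both NC libraries. The means were 291 ± 20.3 TPM in libraries labelled sh-ZNF217 and 371 ± 15.9 TPM in NC (SD, n = 2 each). The log2 fold change came to -0.35 (SE 0.067, 95% interval -0.52 to -0.18, limma adjusted p = 0.0260), short of the fold minimum, and the gene was called in 0 of 13 alternative analyses. In 4 of the 13 its adjusted p was above 0.05: 0.109 for empirical Bayes without trend and robust estimation and 0.0696, 0.1002 and 0.0566 when NC replicate 2, sh-ZNF217 replicate 1 or sh-ZNF217 replicate 2 was left out. An adjusted p below 0.05 on the lower side was reached by 7.11% of all genes tested.

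ATF5, a related factor whose mRNA also carries upstream reading frames (ENSG00000169136, chr19:49928702-49933935, plus strand), had 78.8 and 82.0 TPM in libraries labelled sh-ZNF217, against 67.1 and 59.4 TPM in NC. The groups did not overlap, on the side opposite to ATF4. The log2 fold change came to 0.34 (SE 0.080, interval 0.14 to 0.54, limma adjusted p = 0.0413), again short of the fold minimum, and the adjusted p was above 0.05 in 6 of 13 alternatives, up to 0.151. Exons of ATF5 overlap those of IL4I1, a secreted amino acid oxidase, which had 31.1 and 36.2 TPM in libraries labelled sh-ZNF217 against 27.2 and 21.2 TPM in NC, and of NUP62, a nuclear pore protein. Since no source used here gives the strand setting of the counting, the ATF5 level is uncertain to that extent.

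DDIT3 (CHOP), a partner-seeking factor that ATF4 turns on and that drives death genes under lasting stress (ENSG00000175197, chr12:57516588-57521737, minus strand), had 28.8 and 34.4 TPM in libraries labelled sh-ZNF217, against 10.9 and 11.0 TPM in NC. The lowest library labelled sh-ZNF217 was well above both NC libraries, which were nearly equal. The means were 31.6 ± 3.97 TPM in libraries labelled sh-ZNF217 and 10.9 ± 0.0266 TPM in NC. The log2 fold change came to 1.44 (SE 0.116, interval 1.15 to 1.73, limma adjusted p = 0.00337), place 138 of 14582 when genes are ordered from the highest value down. DDIT3 was called in 13 of 13 alternative analyses, with log2 fold changes of 1.32 to 1.57.

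Exons of DDIT3 overlap those of MARS1, the methionyl-tRNA synthetase, and of MBD6, both on the opposite strand. They also overlap those of ENSG00000285133, on the same strand, which was not among the genes analysed here. MARS1 had 117 and 113 TPM in libraries labelled sh-ZNF217 against 125 and 131 TPM in NC, and MBD6 had 27.2 and 27.8 TPM in libraries labelled sh-ZNF217 against 25.1 and 21.9 TPM in NC. The log2 fold changes of MARS1 and MBD6 were -0.15 (limma adjusted p = 0.121) and 0.22 (adjusted p = 0.170), both smaller in size than that of DDIT3. Whether reads were split correctly among DDIT3 and the genes that overlap it was not tested.

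PPP1R15A (GADD34), the stress-induced phosphatase subunit that lets translation resume (ENSG00000087074, chr19:48872212-48876059, plus strand), had 141 and 162 TPM in libraries labelled sh-ZNF217, against 85.2 and 89.3 TPM in NC. The groups were separated by more than the gap within either of them. The means were 151 ± 14.7 TPM in libraries labelled sh-ZNF217 and 87.2 ± 2.93 TPM in NC. The log2 fold change came to 0.79 (SE 0.081, interval 0.58 to 0.99, limma adjusted p = 0.00615), and the call held in 13 of 13 alternatives. PPP1R15B, the constitutive subunit for the same phosphatase, had 83.8 and 86.9 TPM in libraries labelled sh-ZNF217 against 72.6 and 69.4 TPM in NC (log2 fold change 0.26, adjusted p = 0.0427), below the fold minimum.

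Sequence before a RefSeq start is shown for the measured genes that held one of 4 short motifs in the 250 bases before that start. Of these genes, DDIT3 and PPP1R15A are among those that rose. The motifs were TGATGNAA, the core of the element read by ATF4 with C/EBP factors (CARE), TGANTCA, read by AP-1 dimers such as JUN with FOS, TGACGTCA, the cyclic AMP response element (CRE), and the endoplasmic reticulum stress element, here CCAAT, any 9 bases and CCACG. The last 3 were added after the expression values were seen. All 9 measured genes matched RefSeq promoters (GRCh38.p14, the assembly known as hg38), with 15 starts between them, and both strands were searched. Each window below has 30 bases, written 5′ to 3′ on the strand of the gene with the match in capitals.
CHAC1 (chr15:40953251-40953280, plus strand): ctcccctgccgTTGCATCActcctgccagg
DDIT3 (chr12:57520735-57520764, minus strand): gcgcgcgcaTGACTCAcccacctcctccgt
ATF5 (chr19:49928707-49928736, plus strand): ggagagtgctgTGACTCAtgctggactcta
PPP1R15A (chr19:48872352-48872381, plus strand): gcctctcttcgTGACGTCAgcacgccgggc

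The CHAC1 match is CARE on the opposite strand, 209 to 202 bases before the start. The DDIT3 and ATF5 matches are AP-1 letters, 241 to 235 and 188 to 182 bases before a start, and the PPP1R15A match is CRE, 58 to 51 bases before the start. Among all 35116 RefSeq promoter windows of the same length, 3.14% held CARE, 6.57% AP-1, 1.65% CRE and 0.074% the endoplasmic reticulum stress element, which 0 of the 9 genes held. Counted by gene over all their starts, the shares were 3.89%, 8.06%, 2.03% and 0.0916% of 27305 genes. No match was found for ATF4, TRIB3, DDIT4, SESN2 or VLDLR in these windows. Each printed window also lies within the span given here for its gene, which reaches past the RefSeq start used. A match describes letters and is no evidence of binding. Elements farther before a start, elsewhere in the gene or with other spellings were not searched.

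DDIT4 (REDD1), which holds back the growth kinase complex mTORC1 through TSC2 (ENSG00000168209, chr10:72273919-72276036, plus strand), had 35.9 and 32.6 TPM in libraries labelled sh-ZNF217, against 15.2 and 11.5 TPM in NC. Both libraries labelled sh-ZNF217 were above both NC libraries. The means were 34.3 ± 2.38 TPM in libraries labelled sh-ZNF217 and 13.4 ± 2.61 TPM in NC. The log2 fold change came to 1.31 (SE 0.145, interval 0.94 to 1.67, limma adjusted p = 0.00725). The call held in 12 of 13 alternatives and was lost without sh-ZNF217 replicate 1, where the log2 fold change was 1.24 at an adjusted p of 0.0537.

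SESN2, the leucine-sensing sestrin that also restrains mTORC1 (ENSG00000130766, chr1:28259518-28282491, plus strand), had 19.7 and 18.6 TPM in libraries labelled sh-ZNF217, against 13.1 and 13.5 TPM in NC. The groups did not overlap and the ratio of the means was 1.44. The log2 fold change came to 0.497 (SE 0.098, interval 0.25 to 0.74, limma adjusted p = 0.0275), just under the minimum of 0.5. An adjusted p below 0.05 on the higher side was reached by 9.77% of all genes tested. It was called in 4 of 13 alternatives, with values between 0.506 and 0.535. In 6 of the 13 its adjusted p was above 0.05, up to 0.113, among them all 4 that left out 1 library.

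TRIB3, the pseudokinase that CHOP and ATF4 induce and that feeds back on both (ENSG00000101255, chr20:362835-397559, plus strand), had 23.0 and 24.9 TPM in libraries labelled sh-ZNF217, against 24.5 and 21.8 TPM in NC. The groups overlapped, and the log2 fold change came to 0.05 (SE 0.099, interval -0.20 to 0.30, limma adjusted p = 0.761). The interval lies wholly below those of DDIT3, DDIT4 and PPP1R15A. The sign of the TRIB3 value turned when NC replicate 2 (-0.03) or sh-ZNF217 replicate 2 (-0.004) was left out.

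VLDLR, a lipoprotein receptor counted among stress-response targets (ENSG00000147852, chr9:2621182-2660056, plus strand), had 18.1 and 16.8 TPM in libraries labelled sh-ZNF217, against 16.5 and 18.9 TPM in NC. Its groups overlapped (log2 fold change -0.01, SE 0.110, interval -0.29 to 0.26, limma adjusted p = 0.949). Leaving out NC replicate 2 (0.08) or sh-ZNF217 replicate 2 (0.04) turned the sign, as it did when mitochondrially encoded genes were left out of the scaling (0.02). Its exons overlap those of the antisense gene VLDLR-AS1, which stayed below 0.5 TPM in all 4 libraries.

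CHAC1, which degrades glutathione and is a marker of ATF4 and CHOP activity (ENSG00000128965, chr15:40952962-40956512, plus strand), had 0.118 and 0.547 TPM in libraries labelled sh-ZNF217, against 0.479 and 0.0759 TPM in NC. In each group 1 library was far above the other, and the groups overlapped. With no filter on low values its log2 fold change was 0.06 (limma adjusted p = 0.914). TPM keeps no read depth, so how many reads lie behind such values is unknown.

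**Figure D2:**
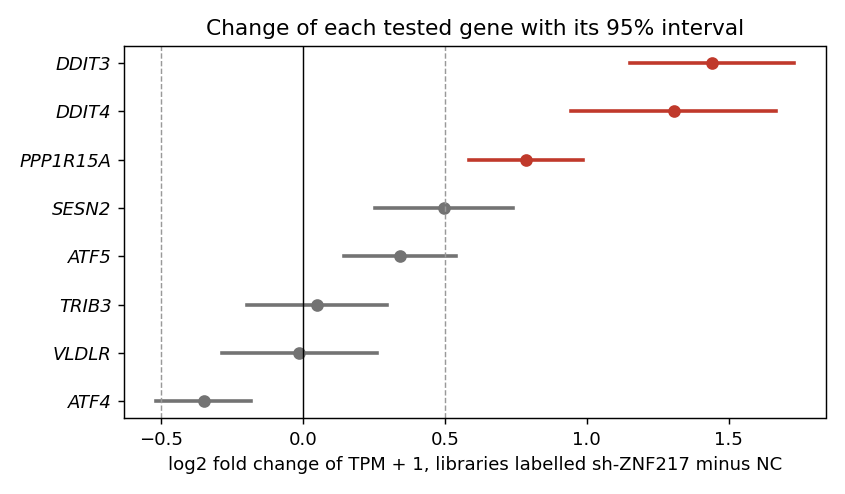
Difference in log2(TPM + 1) between libraries labelled sh-ZNF217 and NC for the 8 tested genes (positive where the sh-ZNF217 libraries were higher), with bars for the 95% interval from limma, dashed lines at the fold minimum and red for genes called changed. DDIT3, DDIT4 and PPP1R15A lie above the minimum with intervals that start at 1.15, 0.94 and 0.58, and ATF4 lies at -0.35.

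**Figure D3:**
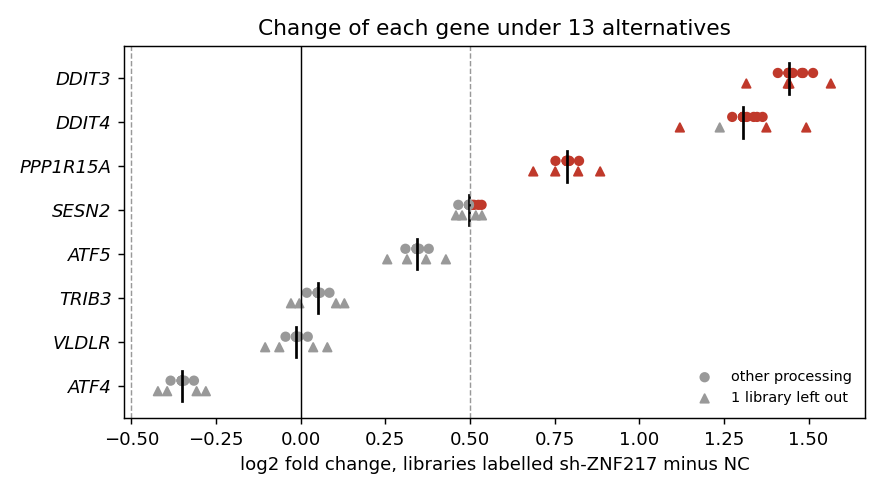
Log2 fold change of the 8 tested genes under 13 alternatives, with circles for other processing, triangles for 1 library left out, black lines for the value as reported and red for genes called changed. DDIT3 and PPP1R15A are red throughout, DDIT4 has 1 grey triangle at 1.24, and SESN2 straddles the dashed line at 0.5.

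The order of levels also differed. In the libraries labelled sh-ZNF217, ATF4 was followed by PPP1R15A, ATF5, DDIT4 and DDIT3, whose libraries overlapped each other, and then TRIB3, SESN2, VLDLR and CHAC1. In NC the order was ATF4, PPP1R15A, ATF5, TRIB3, VLDLR, DDIT4 and SESN2, which overlapped, then DDIT3 and CHAC1. DDIT3 was thus below TRIB3, VLDLR, DDIT4 and SESN2 in NC and above TRIB3, SESN2 and VLDLR in libraries labelled sh-ZNF217. Among all genes tested its level stood at percentile 65.0 in libraries labelled sh-ZNF217 and 40.8 in NC.

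The summed level of the 9 genes was 622 and 677 TPM in libraries labelled sh-ZNF217, against 593 and 608 TPM in NC. ATF4 made up 44.5% and 45.1% of it in libraries labelled sh-ZNF217, against 60.7% and 62.9% in NC. Ratios within a library, which do not depend on its total, were set beside each other for 6 pairs of genes. In each pair the first gene had the higher log2 fold change. A higher ratio therefore follows from the values of the single genes and is no further result. DDIT3 over ATF4 was 0.104 and 0.112 in libraries labelled sh-ZNF217, against 0.0303 and 0.0287 in NC. For PPP1R15A over ATF4 the values were 0.509 and 0.530 in libraries labelled sh-ZNF217, against 0.236 and 0.233 in NC. All 6 ratios were higher in libraries labelled sh-ZNF217 without overlap. The exact two-sided permutation test gave p = 0.333 for each, the smallest that 2 against 2 libraries allow, and the adjusted values over the 6 are the same, so no ratio could pass a threshold.

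**Figure D4:**
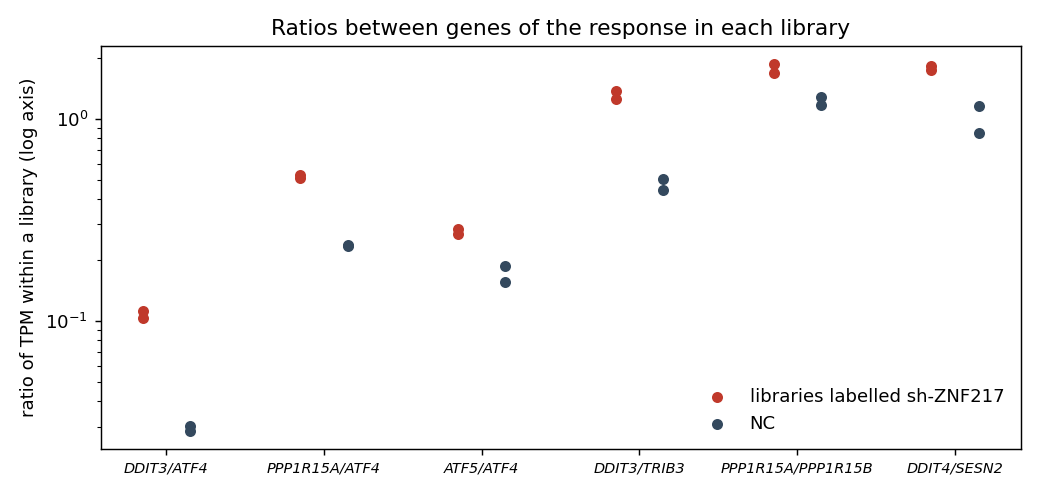
Ratio of TPM between named genes within each library on a log axis, libraries labelled sh-ZNF217 left and NC right. DDIT3 over ATF4 shows the widest gap (3.66-fold between means), followed by DDIT3 over TRIB3 (2.77-fold) and PPP1R15A over ATF4 (2.21-fold), and PPP1R15A over PPP1R15B has the narrowest (1.44-fold).

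Among the 20 genes that sense stress or handle eIF2, 0 were higher and 1 was lower, beside 6.26% and 2.46% over all genes tested. The median log2 fold change was -0.001, and at an unadjusted limma p below 0.05 the counts were 1 higher and 3 lower. The 4 eIF2 kinases had values of -0.08 (EIF2AK1, the heme-sensing kinase), 0.16 (EIF2AK2, or PKR), 0.13 (EIF2AK3, or PERK) and 0.09 (EIF2AK4, or GCN2), and none was called. EIF2B3, a subunit of the exchange factor that phosphorylated eIF2 blocks, fell to 47.5 and 41.3 TPM in libraries labelled sh-ZNF217, against 67.3 and 64.0 TPM in NC (log2 fold change -0.56, limma adjusted p = 0.0160). That call was lost without sh-ZNF217 replicate 2 (-0.46, adjusted p = 0.0633). Kinase activity and eIF2 phosphorylation were not measured.

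The next list held 13 tested basic leucine zipper factors and regulators that pair with ATF4 or CHOP or act beside them. Of these, 4 were higher and 0 lower, beside 6.26% and 2.46% over all genes tested. At an unadjusted limma p below 0.05, 8 were higher and 3 lower, and the median was 0.25. JUN, an AP-1 subunit, had 105 and 115 TPM in libraries labelled sh-ZNF217, against 47.4 and 49.98 TPM in NC (log2 fold change 1.16, limma adjusted p = 0.00203). ATF3, a stress-induced repressor downstream of ATF4, had 17.4 and 14.4 TPM in libraries labelled sh-ZNF217, against 6.35 and 6.66 TPM in NC (1.17, adjusted p = 0.00826). FOS (0.60) and CREBRF (0.95), a regulator of CREB3 turnover, were also called, whereas CEBPB was at -0.30 (adjusted p = 0.0610) and CEBPG at 0.13. The ATF3 call was lost without sh-ZNF217 replicate 1 (adjusted p = 0.0511), FOS without either sh-ZNF217 library (up to 0.0669) and CREBRF without any 1 of the 4 libraries (up to 0.1002). The count of 4 became 1 when sh-ZNF217 replicate 1 was left out and 2 for sh-ZNF217 replicate 2.

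Among amino acid transporters, 1 of 10 tested was higher and 0 lower, beside 6.26% higher over all genes tested. It was SLC7A11, the cystine importer, which had 53.9 and 55.1 TPM in libraries labelled sh-ZNF217, against 11.4 and 12.2 TPM in NC. The ratio of means was 4.61 (log2 fold change 2.12, limma adjusted p = 0.000680). SLC7A5, the leucine transporter, was at -0.47 (adjusted p = 0.00864) and its partner SLC3A2, which also pairs with SLC7A11, at 0.45 (adjusted p = 0.00970), both short of the fold minimum. SLC7A5 passed that minimum without sh-ZNF217 replicate 2 (-0.505) and with median-of-ratios scaling (also -0.505), which made the count 2. At an unadjusted p below 0.05, 4 transporters were higher and 3 lower.

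Of 11 tested enzymes of serine, proline, cysteine and alanine synthesis, 0 were higher and 4 lower (0 and 9 at an unadjusted p below 0.05), beside 2.46% lower over all genes tested, and the median was -0.39. Negative values were found for 10 of the 11, each with groups that did not overlap, beside 28.6% of all genes tested that were separated downward. The 4 that fell were CBS of cysteine synthesis (-0.88), GPT2 of alanine synthesis (-0.75), ALDH18A1 of proline synthesis (-0.62) and SHMT2 of mitochondrial one-carbon metabolism (-0.52). PHGDH and PSAT1 of serine synthesis had values of -0.28 and -0.39 and the folate enzyme MTHFD2 -0.20, short of the minimum, and CTH, which makes cysteine, had 0.21. The count of 4 became 2 without NC replicate 2 and 0 without sh-ZNF217 replicate 2, where the adjusted p-values of the 4 ran from 0.0501 to 0.0765. GPT2 was also lost without NC replicate 1 (adjusted p = 0.0953).

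None of 13 tested tRNA synthetases and tRNA exporters of the ATF4 response was called, beside 8.72% of all genes tested. The median was -0.15, with 10 values below 0. AARS1 had a log2 fold change of -0.14 and WARS1 of -0.12. At an unadjusted limma p below 0.05, 7 were lower and 0 higher, among them TARS1 with 77.8 and 75.4 TPM in libraries labelled sh-ZNF217 against 105 and 101 TPM in NC (-0.43, limma adjusted p = 0.0118), named after its value was seen.

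Of 25 other tested ATF4 and CHOP targets and relatives of the 10 genes, 7 were higher and 0 lower. Over all genes tested, 6.26% were higher and 2.46% lower. At an unadjusted limma p below 0.05, 12 of the 25 were higher and 1 lower, and the median was 0.13. SQSTM1, the autophagy receptor p62, had 557 and 596 TPM in libraries labelled sh-ZNF217, against 272 and 266 TPM in NC (log2 fold change 1.10, limma adjusted p = 0.00119). HMOX1, a heme-degrading enzyme (0.91), TXNIP, a thioredoxin binder (0.83), and MAP1LC3B of the autophagosome (0.57) rose too, and the other 3 were KLHL24 (0.92), RRAGD (0.52) and SESN1 (0.54). SESN1, the paralog of SESN2, lost its call without any 1 library (adjusted p up to 0.146), RRAGD without NC replicate 1 or either sh-ZNF217 library (0.0619 to 0.0896), KLHL24 without either sh-ZNF217 library (0.0559 and 0.0697) and MAP1LC3B without sh-ZNF217 replicate 1 (0.0549). SESN3 was at -0.12 and turned positive without NC replicate 2 (0.04). The CHOP target TNFRSF10B, a death receptor, was at 0.42 (adjusted p = 0.0334) and passed the minimum without NC replicate 1 (0.52), and the translation repressor EIF4EBP1 was at -0.32 (adjusted p = 0.0223). The secreted factor GDF15 was below the filter, with 0.858 and 0.946 TPM in libraries labelled sh-ZNF217 against 0.217 and 0.534 TPM in NC. The count of 7 became 3 when sh-ZNF217 replicate 1 was left out and 4 for sh-ZNF217 replicate 2.

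In the other arms of the unfolded protein response, 4 of 22 tested genes were higher and 0 lower, beside 6.26% and 2.46% over all genes tested. At an unadjusted limma p below 0.05, 9 were higher and 1 lower, and the median was 0.09. DNAJB9, a chaperone of the IRE1 arm, had 13.2 and 13.4 TPM in libraries labelled sh-ZNF217, against 5.82 and 5.39 TPM in NC (log2 fold change 1.11, limma adjusted p = 0.00735). HERPUD1 (0.81) and EDEM1 (0.64) of protein disposal and ERN1, which is IRE1 itself (0.77), also rose. HSPA5, the main chaperone of the compartment, was at 0.10 with 472 and 469 TPM in libraries labelled sh-ZNF217 against 429 and 449 TPM in NC, and XBP1 was at -0.15. EDEM1 kept its call without each library in turn, while DNAJB9 and HERPUD1 lost theirs without either sh-ZNF217 library (adjusted p 0.0503 to 0.121) and ERN1 without NC replicate 2 or either sh-ZNF217 library (0.0621 to 0.0944). The count was therefore 1 without either sh-ZNF217 library.

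Around the mTORC1 inhibitors DDIT4 and SESN2, 2 of 19 tested mTORC1 regulators were higher and 0 lower (7 higher and 3 lower at an unadjusted p below 0.05), beside 6.26% higher over all genes tested. They were RRAGC, a Rag GTPase (0.57), and FLCN, folliculin (0.55). FLCN lost its call without NC replicate 1 or either sh-ZNF217 library (adjusted p up to 0.101), which left 1. DDIT4 and SESN2 are also targets of p53, the glucocorticoid receptor and hypoxia. Of 18 tested genes of those inputs 5 were higher and 2 lower, beside 6.26% and 2.46% over all genes tested. Their median was 0.10.

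CDKN1A (p21), a cell cycle inhibitor that p53 induces, had 73.7 and 77.2 TPM in libraries labelled sh-ZNF217, against 39.9 and 41.8 TPM in NC (log2 fold change 0.87, limma adjusted p = 0.00324). BTG2, another p53 target, was at 1.09, TSC22D3 (GILZ), a glucocorticoid receptor target, at 1.08, ADM, a hypoxia target, at 1.03 and RRM2B at 0.52, and all were called. MDM2, the p53 target that degrades p53, fell to 21.7 and 25.0 TPM in libraries labelled sh-ZNF217, against 32.7 and 36.3 TPM in NC (-0.55, adjusted p = 0.0263), and the glucose transporter SLC2A1 fell as well (-0.62). Other glucocorticoid receptor targets, FKBP5 (-0.06), PER1 (-0.37) and KLF9 (0.03), were not called. Nor were NDRG1 (0.03), ANKRD37 (-0.21), PFKFB4 (-0.05) and KDM3A (0.30) among the hypoxia targets. CDKN1A and BTG2 kept their calls without each library in turn. Calls were lost for ADM without any 1 library (adjusted p 0.0552 to 0.0983), for MDM2 without NC replicate 2 or either sh-ZNF217 library (0.0612 to 0.1002), for SLC2A1 without either NC library or sh-ZNF217 replicate 2 (0.0561 to 0.0747), for TSC22D3 without either sh-ZNF217 library (up to 0.0566) and for RRM2B without NC replicate 2 (log2 fold change 0.47) or either sh-ZNF217 library. Here 7 calls became 3 when NC replicate 2 or sh-ZNF217 replicate 1 was left out and 2 for sh-ZNF217 replicate 2.

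**Figure D5:**
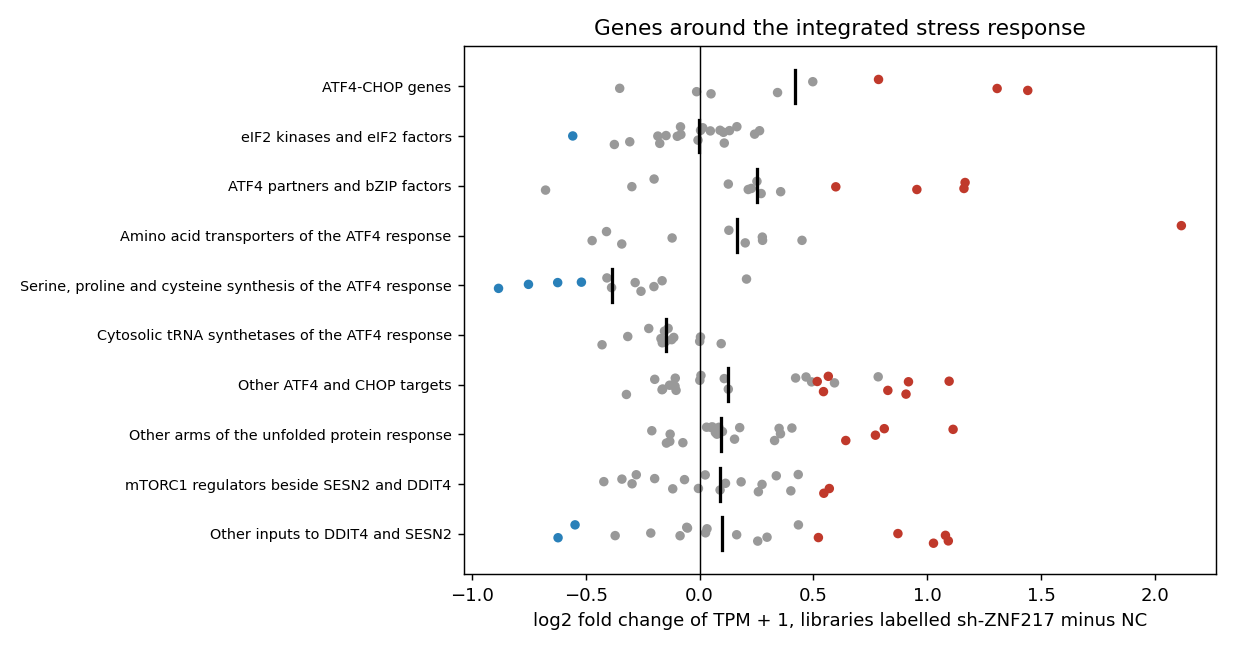
Difference in log2(TPM + 1) between libraries labelled sh-ZNF217 and NC for each tested gene of the ATF4-CHOP genes and of 9 surrounding lists (positive where the sh-ZNF217 libraries were higher), with red for higher calls, blue for lower calls, grey for neither and black lines for medians. The highest point is SLC7A11 at 2.12, and the synthesis enzymes lie mostly below 0 with a median of -0.39.

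Several properties of the libraries moved with the groups, and their part in these results was not tested. ZNF217 itself had 35.8 and 34.97 TPM in libraries labelled sh-ZNF217, against 36.1 and 36.7 TPM in NC. The log2 fold change of ZNF217 was -0.04 (interval -0.22 to 0.14, limma adjusted p = 0.740). The paper reports from qRT-PCR that its shRNAs lowered ZNF217 mRNA in U937 cells, and no such fall was seen in these libraries. The knockdown label was thus not borne out by the mRNA, and each direction above is that of libraries as labelled. Mitochondrially encoded genes took 12.5% and 12.7% of the total in libraries labelled sh-ZNF217 and 9.98% and 10.8% in NC. Ribosomal protein genes took 9.997% and 9.75% in libraries labelled sh-ZNF217 and 11.9% and 11.5% in NC, and 14421 and 14402 genes reached 1 TPM in libraries labelled sh-ZNF217 against 14101 and 14080 in NC. The 14 myeloid markers, all in the table, summed to 7447 and 7426 TPM in libraries labelled sh-ZNF217 against 4935 and 4973 TPM in NC, mostly lysozyme (LYZ), with SPI1 at 316 TPM or more in every library and MPO below 1. The markers did not move one way: of 13 tested, 5 were higher and 2 lower, beside 6.26% and 2.46% over all genes tested. ITGAM (CD11b), an integrin of mature myeloid cells, had 43.1 and 43.0 TPM in libraries labelled sh-ZNF217 against 16.0 and 15.9 TPM in NC, and the receptor CSF1R had 13.3 and 14.3 TPM in libraries labelled sh-ZNF217 against 7.50 and 7.56 TPM in NC. The granule proteases fell, PRTN3 to 69.2 and 73.5 TPM in libraries labelled sh-ZNF217 against 186 and 191 TPM in NC, and ELANE to 22.1 and 22.5 TPM in libraries labelled sh-ZNF217 against 42.4 and 36.8 TPM in NC. The CD3 genes of T cells, the globins and epithelial markers were not among the genes analysed here. Of 3 tested T and NK cell markers, 1 was higher (CD2, 1.20) and 0 lower, beside the same shares of all genes. Of 3 tested B cell markers, 0 were higher and 1 lower (PAX5, -0.80). NKG7, a T and NK cell marker, had 96.9 and 105 TPM in libraries labelled sh-ZNF217 against 85.2 and 67.5 TPM in NC, and was not called. In bulk RNA, fewer cells of a type and less RNA per cell cannot be told apart.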

How the data were processed

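Total RNA of U937 cells was extracted with Trizol and made into TruSeq libraries, 2 labelled sh-ZNF217 and 2 NC. The authors filtered reads and aligned them to hg38, with HISAT2 2.0.5 named in the submitters' processing notes. No source used here gives the quantifier, annotation release, strand setting or read depth. The deposited values were taken as TPM because each column sums to 998932 to 999282. FPM is the measure named by the authors in their methods. TPM keeps no depth, so no counting interval was given. Each column was assigned to its sample by NC or ZNF plus the number in its name, and other parts of these names are unexplained.

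Genes were named from GENCODE 44. Values were transformed to log2(TPM + 1), which understates the change of low genes, filtered at 1 TPM in 2 or more libraries and compared in limma 3.58.1 (R 4.3.3, group alone, trended and robust empirical Bayes, Benjamini-Hochberg over 14582 genes). Folds are ratios of mean TPM. The procedure was tested on simulated data. Members and lists were chosen with earlier results of these data known. The text names all 10 genes, ZNF217, up to 4 changed genes of each list by smallest p, and genes of defining role. KLHL24, RRAGD, ADM, SLC2A1, MDM2 and PPP1R15B were named outside this rule, after their values were seen. So were CEBPA, FKBP5, PER1, KLF9, NDRG1, ANKRD37, PFKFB4 and KDM3A. NUPR1 and BNIP3 were not analysed here. Motifs were searched in the 250 bases before each start, without the bases after it. The 13 alternatives changed the pseudocount (0.1, 0.5), the filter (none, 5 TPM), scaling, gene universe, variance prior or replicate block, or left out 1 library, whose lone partner was then assumed to vary like the other group. Plots were made in Python 3.11.15 (matplotlib 3.10.9).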

Additional observations from a re-analysis of the deposited data

How the results depend on the processing

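DDIT3 and PPP1R15A kept direction and call in 13 of 13 alternatives, and DDIT4 in 12. Over all genes, 913 were higher and 359 lower. Median-of-ratios scaling gave 815 and 441, and made the transporter count 2, with 1 lower. Empirical Bayes without trend and robust estimation gave 723 changed genes (560 higher, 163 lower), with counts of 0 for eIF2 genes, 2 for synthesis enzymes, 4 for other ATF4 and CHOP targets, 1 for mTORC1 regulators and 4 for the p53, glucocorticoid and hypoxia genes. That prior ended the calls of EIF2B3, FOS, SHMT2, GPT2, MAP1LC3B, SESN1, RRAGD, HERPUD1, FLCN, RRM2B, MDM2 and SLC2A1 (limma adjusted p 0.0516 to 0.0886). RRM2B (0.49) and RRAGD (0.48) were also lost with median-of-ratios scaling and SHMT2 without mitochondrially encoded genes (-0.48), where VLDLR turned to 0.021. The causes were not tested.

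With 1 library left out, the count over all genes ran from 430 (without sh-ZNF217 replicate 2) to 1029 (without NC replicate 2). It ran from 2 to 3 for the ATF4-CHOP genes, 0 to 1 for eIF2 genes, 1 to 3 for leucine zipper factors, 1 to 2 for transporters, 0 to 4 for synthesis enzymes, 3 to 8 for other targets, 1 to 4 for the unfolded protein response, 1 to 2 for mTORC1 regulators and 2 to 5 for the p53, glucocorticoid and hypoxia genes, and stayed at 0 for tRNA synthetases. Log2 fold changes then ran from -0.028 to 0.129 for TRIB3, from -0.105 to 0.079 for VLDLR, from -0.273 to 0.037 for SESN3 and from -0.017 to 0.28 for EIF2AK3.

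With the replicate number as a block, 1049 genes were changed (749 higher, 300 lower), 3 of them ATF4-CHOP genes, and of the named genes SESN1 lost its call (adjusted p = 0.0732). The numbers do not pair the libraries, since only 2 pairs exist and deviations of same-numbered libraries correlated at -0.005 over 14582 genes.

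The 2 libraries a group limit every statement, and depth is unknown. Values of genes with overlapping exons, DDIT3 and ATF5 among them, rest on an unstated strand setting. For DDIT3, an overlapping gene on the same strand was not analysed here. Protein, eIF2 phosphorylation and translation were not measured.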
